A study of Homo sapiens with 6 samples.

Results

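The aldo-keto reductases (AKRs) are a family of NADPH-dependent enzymes that reduce aldehydes and ketones to alcohols. The 10 genes described here, AKR1A1, AKR1B1, AKR1B10, AKR1B15, AKR1C1, AKR1C2, AKR1C3, AKR1C4, AKR7A2 and AKR7A3, were chosen by their symbols from the AKR1A, AKR1B, AKR1C and AKR7A branches of the family. The choice was made with earlier results of these data known, so comparisons with all tested genes are descriptive. All 10 were found among the 58884 genes measured. RNA was sequenced from untreated cells of 2 lines in RPMI1640 medium with 3 libraries each. The first was KYSE70, a line established from human esophageal squamous cell carcinoma (ESCC). It carries the mutant allele W24C of NFE2L2, the gene of the transcription factor NRF2. The second was NRF2null-KYSE70, a single clone of KYSE70 with a frameshift made by CRISPR-Cas9 in exon 2 of NFE2L2, in which the study still detected a faint, smaller NRF2 band. The labels did not state whether the libraries came from separate cultures, so the p-values measured only the spread between these libraries of 1 parental line and 1 clone.

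NRF2 is known to drive genes of detoxification through a DNA element called the antioxidant response element, and AKR genes are widely used as readouts of its activity in human cells. AKR1C enzymes act on steroids and prostaglandins, AKR1B10 reduces retinal and lipid-derived aldehydes, AKR1B1 reduces glucose to sorbitol, and the AKR7A enzymes reduce dicarbonyls and aldehydes formed from toxins. Because several members arose by gene duplication, their messages are near copies of each other, which matters for how short reads are assigned to them.

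The letters that separate the near copies are shown first, since the counts of these members rest on them. AKR1C1 and AKR1C2 shared 98.0% of their coding bases and differed at 19 of 972 positions. AKR1C1 and AKR1C3 differed at 83 positions. The 60 bases below are coding positions 103 to 162, all within exon 2, on hg38 at chr10:4965932-4965991 (plus strand) for AKR1C1, chr10:5001604-5001663 (minus strand) for AKR1C2 and chr10:5096428-5096487 (plus strand) for AKR1C3. This stretch was picked for the most differences between AKR1C1 and AKR1C2 among gap-free 60-base coding stretches within 1 exon, so it is not typical of the genes. Capitals mark the positions at which the 3 genes are not all alike.
AKR1C1: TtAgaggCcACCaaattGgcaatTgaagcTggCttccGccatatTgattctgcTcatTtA
AKR1C2: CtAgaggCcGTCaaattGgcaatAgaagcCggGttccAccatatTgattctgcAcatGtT
AKR1C3: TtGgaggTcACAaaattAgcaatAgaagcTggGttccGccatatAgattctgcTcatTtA
In this window AKR1C2 differed from AKR1C1 at 10 positions and AKR1C3 differed from AKR1C1 at 7. Over the whole transcript, 17.2% of all 150-base windows of AKR1C2 and 7.91% of those of AKR1C1 occurred letter for letter in the transcript of another gene. The pair shared 506 such windows counted from either side. The 2 percentages differ mainly because the canonical transcript has 6543 bases in AKR1C1 and 3215 in AKR1C2. Both hold 972 coding bases, so these shares are not those of the coding part. The share was 27.8% for AKR1C2 and 12.6% for AKR1C1 with windows of 100 bases. How the counting treated reads with several alignments was not stated, so the split of reads between AKR1C1 and AKR1C2 is uncertain and their sum is given beside the single values.

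AKR1B10 and AKR1B15 are neighbours on the long arm of chromosome 7, and 85.9% of their aligned coding columns were identical. Only 62 columns held differing bases, and 84 were gaps, since the coding sequence has 951 bases in AKR1B10 and 1035 in AKR1B15. The 60 coding bases below lie in exon 2 of AKR1B10 at chr7:134530685-134530744 and in exon 4 of AKR1B15 at chr7:134568200-134568259, both on the plus strand of hg38. This stretch was picked in the same way, for the most differences between the 2 genes. Capitals mark the 7 positions at which they differ.
AKR1B10: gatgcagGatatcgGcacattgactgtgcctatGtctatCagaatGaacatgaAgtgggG
AKR1B15: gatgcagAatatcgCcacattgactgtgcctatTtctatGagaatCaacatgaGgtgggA
None of the 150-base windows of either gene was found in another transcript, and 1.97% of the 100-base windows of AKR1B10 and 1.10% of those of AKR1B15 were. AKR1B1 had no shared window of 100 or 150 bases, and AKR1A1 had none at 50, 100 or 150 bases. For AKR7A3 the share was 6.38% at 150 bases, all of it with its neighbour AKR7L.

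The gene counts of the 6 libraries summed to 52072801 to 63975313 reads each. Values are normalized counts, that is, read counts divided by 1 size factor per library, and libraries are numbered by their order in the table because the columns carried only the name of the line. Within each line every pair of libraries differed by more than sampling noise, and NRF2null-KYSE70 library 1 stood furthest from its partners (chi-square per degree of freedom 25.6 and 25.1 against 4.75 between the others). NFE2L2 itself went from 9928 ± 102 normalized counts in the parental line to 6093 ± 318.8 in the clone (± SD of 3 libraries here and below, log2 fold change -0.71), and KEAP1, whose protein restrains NRF2, went from 9834 ± 121 to 5729 ± 441 (-0.78). All 10 squamous epithelial markers, led by KRT5, were detected in both lines. Their list summed to 350490 to 361791 normalized counts in KYSE70 and 271958 to 288741 in NRF2null-KYSE70. Of the 10, 0 were called lower and 1 higher, against 7.43% and 7.23% of all tested genes. At adjusted p alone 4 were lower and 6 higher, against 28.3% and 29.3%. The leukocyte markers summed to between 0 and 15.8 normalized counts in KYSE70 and 42.2 to 58.2 in NRF2null-KYSE70, where PTPRC made up most of the sum. The endothelial markers, nearly all VWF, summed to 134 to 149 against 275 to 450.3, with KDR at 0. Among 7 fibroblast markers COL1A2 and DCN were at 0 while COL1A1, COL3A1 and THY1 were present (list summed 3851 to 3973 against 3039 to 3452). Within that sum COL1A1 and COL3A1 were called lower (log2 fold changes -1.16 and -4.79), THY1 differed by 0.15, and PDGFRB went from 0 reads in KYSE70 to 41 reads in NRF2null-KYSE70. Both groups were cultures of a tumor line or its single clone, so reads of these markers are not read here as other cell types. Which cells held them was not tested, and bulk RNA cannot separate the number of cells from the RNA per cell.

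Most AKR messages were lower in the NRF2null clone, and none was called higher. AKR1B10 and AKR1B15 fell the most, followed by AKR1C1, AKR7A3, AKR1C3 and AKR1C2, while AKR1B1, AKR1A1 and AKR7A2 stayed within a log2 fold change of 1. The place of AKR7A3 rests on few reads. A gene was called when its adjusted p in limma was under 0.05 and its absolute log2 fold change at least 1, and fold changes were taken on log2(normalized count + 1), so that changes of genes with few reads are understated. Of the 10 members, 9 had a mean of at least 10 normalized counts and entered the test of 15994 genes, and AKR1C4 did not. In NRF2null-KYSE70, 6 of the 9 were called lower and 0 higher. Of all tested genes 7.43% were called lower and 7.23% higher, 14.7% in all. With adjusted p alone, 8 of the 9 were lower, where 28.3% of all genes were. The 3 libraries of one line did not overlap those of the other for 8 members, all lower in NRF2null-KYSE70 and 0 higher, against 31.3% and 32.1% of all genes. The median log2 fold change was -1.46 over the 9 members and -0.01 over all tested genes.

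**Figure D1:**
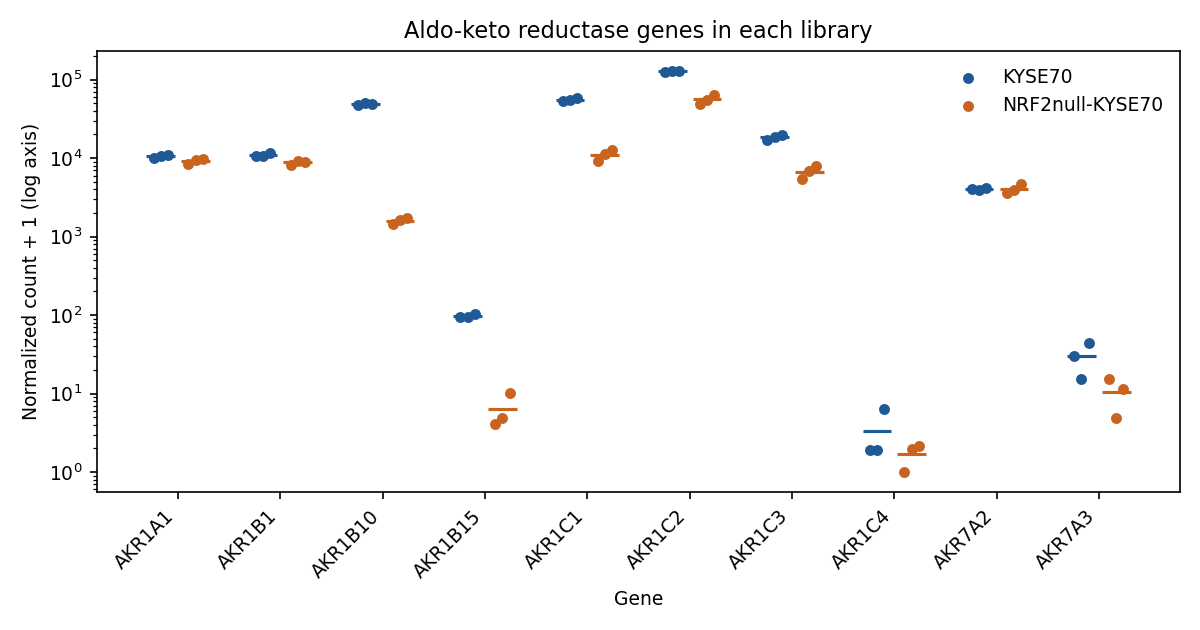
Normalized count + 1 (log axis) of each of the 10 genes, with a point for each library and a bar at the mean of each line (n = 3). The NRF2null-KYSE70 points lie below all KYSE70 points for every tested gene except AKR7A2, and AKR1C4 is near 0 in both lines.

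AKR1B10 had the largest change of the family. It reduces retinal to retinol and clears reactive aldehydes, and it lies at chr7:134527567-134541412 on the plus strand (ENSG00000198074). Its normalized counts were 47868, 49874 and 49285 in KYSE70 and 1461, 1629 and 1703 in NRF2null-KYSE70. The lines were far apart, and the spread within each line was 2.10% and 7.78% of its mean. The difference of -4.94 on the log2 scale (SE 0.057, adjusted p in limma = 2.67e-14) was the 80th lowest of the 15994 tested genes. Only 0.85% of tested genes had a log2 fold change of -4 or less. By count AKR1B10 stood between ranks 112 and 122 among all genes in the KYSE70 libraries and between ranks 6449 and 7003 in the NRF2null-KYSE70 libraries.

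AKR1B15, a close relative of AKR1B10, was also lower, at far fewer reads. Its gene (ENSG00000227471) lies at chr7:134549110-134579875 on the plus strand. It held 94.3, 94.3 and 103 normalized counts in KYSE70 and 3.04, 3.92 and 9.13 in NRF2null-KYSE70, or 308 against 15 reads in all. All of the clone's values lay below the parental ones (log2 fold change -4.07 with SE 0.421, limma adjusted p = 3.51e-06). With 15 reads in NRF2null-KYSE70 the size of this fold depended on the pseudocount, and it was -3.35 with a pseudocount of 5. AKR1B15 amounted to 0.199% ± 0.0104 of the AKR1B10 count in KYSE70 and 0.328% ± 0.181 in NRF2null-KYSE70, and whether any of its reads came from AKR1B10 messages was not tested.

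AKR1B1, the aldose reductase of the polyol pathway, changed far less than its neighbours. The gene (ENSG00000085662, chr7:134442356-134459284, minus strand) held 10686, 10646 and 11450 normalized counts in KYSE70 and 8260, 9247 and 8892 in NRF2null-KYSE70. Every NRF2null-KYSE70 library was below every KYSE70 library. The log2 fold change of -0.31 with an SE of 0.053 (limma adjusted p = 0.00026) passed the test but not the fold cut-off. Within a library the ratio of AKR1B10 to AKR1B1 counts was 4.49 ± 0.190 in KYSE70 and 0.182 ± 0.00871 in NRF2null-KYSE70. This ratio fell by 4.63 on the log2 scale (two-sided exact permutation p = 0.1, the smallest that 3 against 3 libraries can give).

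The AKR1C genes held the most reads of the family. AKR1C2, which inactivates the androgen dihydrotestosterone, was the most abundant by count (ENSG00000151632, chr10:4987775-5018031, minus strand). Its values were 124196, 129555 and 128691 normalized counts in KYSE70 and 49259, 55608 and 63386 in NRF2null-KYSE70. The lines did not overlap, and the clone's mean was 2.27-fold lower (log2 fold change -1.19 with SE 0.075, limma adjusted p = 3.59e-08). Even so, it stood between ranks 90 and 124 by count in the NRF2null-KYSE70 libraries, after ranks 23 to 25 in KYSE70.

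AKR1C1, which inactivates progesterone, fell further than AKR1C2. Its gene (ENSG00000187134) lies at chr10:4963253-4983283 on the plus strand. The counts were 52702, 55332 and 57564 in KYSE70 and 9296, 11416 and 12625 in NRF2null-KYSE70. No library of the clone came near the parental range (log2 fold change -2.32 with SE 0.087, limma adjusted p = 3.21e-10). The ratio of AKR1C1 to AKR1C2 within a library was 0.424, 0.427 and 0.447 in KYSE70 and 0.189, 0.205 and 0.199 in NRF2null-KYSE70. These ratios did not overlap and fell by 1.13 on the log2 scale (two-sided exact permutation p = 0.1, the smallest possible).

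AKR1C3 makes testosterone from androstenedione and also forms prostaglandin F. The gene (ENSG00000196139, chr10:5035354-5107686, plus strand) held 17193, 18340 and 19501 normalized counts in KYSE70 and 5444, 6834 and 7867 in NRF2null-KYSE70. The lines did not overlap (log2 fold change -1.46 with SE 0.102, limma adjusted p = 8.82e-08). Its ratio to AKR1C2 went from 0.144 ± 0.00684 to 0.119 ± 0.00752, a fall of 0.27 on the log2 scale (two-sided exact permutation p = 0.1, the smallest possible). AKR1C4, known mainly from liver, where it acts in bile acid and steroid metabolism, was barely detected. Its reads numbered 1, 1 and 5 in KYSE70 and 0, 1 and 1 in NRF2null-KYSE70, so no difference was detectable at this depth.

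The summed counts of the AKR1C genes do not depend on how the counted reads were divided among them. The sum of AKR1C1 to AKR1C4 was 194091, 203228 and 205761 normalized counts in KYSE70 and 63998, 73859 and 83879 in NRF2null-KYSE70. That was 36.8% of the parental level, with no overlap between the lines (two-sided exact permutation p = 0.1, the smallest possible). AKR1C1 and AKR1C2 alone summed to 182680.1 ± 5054 and 67196 ± 8729. Whether reads matching both genes entered these counts was not stated, so the sum may hold only reads that carry letters separating the pair. In NRF2null-KYSE70 the AKR1C genes also varied more between libraries, with a spread of 15.2% for AKR1C1, 12.6% for AKR1C2 and 18.1% for AKR1C3, against 4.41%, 2.26% and 6.29% in KYSE70. NRF2null-KYSE70 library 1 was the lowest of its line for 8 of the 9 tested members, where it was the lowest for 36.2% of all genes, and KYSE70 library 1 was the lowest of its line for 6 of the 9, against 34.8% of all genes.

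AKR1A1, the aldehyde reductase that also acts in glucuronate metabolism, moved little. The gene (ENSG00000117448, chr1:45550543-45570049, plus strand) held 10129, 10537 and 11060 normalized counts in KYSE70 and 8513, 9545 and 9794 in NRF2null-KYSE70. The lines did not overlap, with a log2 fold change of -0.19 and an SE of 0.059 (limma adjusted p = 0.0144) that did not reach the fold cut-off. Without KYSE70 library 3, or in limma without the mean-variance trend, its adjusted p was over 0.05 (up to 0.0828).

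The 2 AKR7A genes lie side by side on the short arm of chromosome 1 and had different values. AKR7A2, which reduces succinic semialdehyde, lies at chr1:19303965-19312144 on the minus strand (ENSG00000053371). It held 3984, 3965 and 4214 normalized counts in KYSE70 and 3603, 3940 and 4633 in NRF2null-KYSE70. The lines overlapped, with a log2 fold change of -0.01 and an SE of 0.078 (limma adjusted p = 0.956). AKR7A3, a reductase of the aldehyde form of aflatoxin (ENSG00000162482, chr1:19282573-19288770, minus strand), held 29.3, 14.5 and 43.2 in KYSE70 and 14.2, 3.92 and 10.3 in NRF2null-KYSE70. The highest NRF2null-KYSE70 library was just under the lowest KYSE70 library. The log2 fold change of -1.54 with an SE of 0.565 (limma adjusted p = 0.033) rested on 90 against 27 reads. The call was lost without KYSE70 library 1 (adjusted p = 0.0879), KYSE70 library 3 (0.142) or NRF2null-KYSE70 library 2 (0.113), and the ratio of AKR7A3 to AKR7A2 had a two-sided exact permutation p = 0.2.

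**Figure D2:**
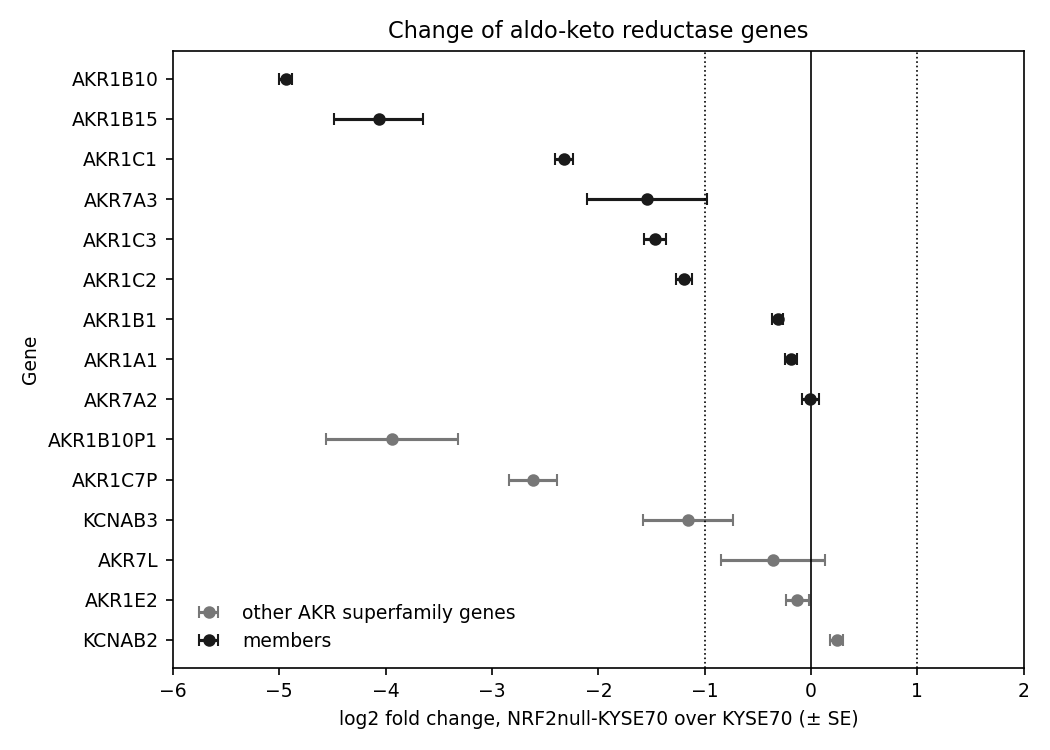
log2 fold change (NRF2null-KYSE70 over KYSE70, points with SE bars) of the 9 tested members in black and 6 other tested genes of the AKR superfamily in grey. Dotted lines mark the cut-off of 1 in either direction, and the points run from -4.94 for AKR1B10 to -0.01 for AKR7A2 among the members.

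The family as a whole took a smaller part of the message pool in the clone. The 10 members held 0.469%, 0.492% and 0.496% of all reads in KYSE70 and 0.142%, 0.164% and 0.183% in NRF2null-KYSE70. The lines did not overlap and differed by -0.32 percentage points (two-sided exact permutation p = 0.1, the smallest possible). The make-up of this pool differed as well. AKR1B10 went from 17.8% to 1.64% of the family's normalized counts, and AKR1C1 held 11.3% in the clone after 19.7%, 19.9% and 20.4% in the KYSE70 libraries. AKR1C2 went from 46.2% ± 0.514 to 57.4% ± 0.792, although its own count was lower. The shares of AKR1A1 and AKR1B1 went from 3.83% to 9.54% and from 3.96% to 9.07%, and that of AKR7A2 from 1.47% to 4.15%. Such shares add up to a fixed total, so a lower share of one gene raises those of the others.

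**Figure D3:**
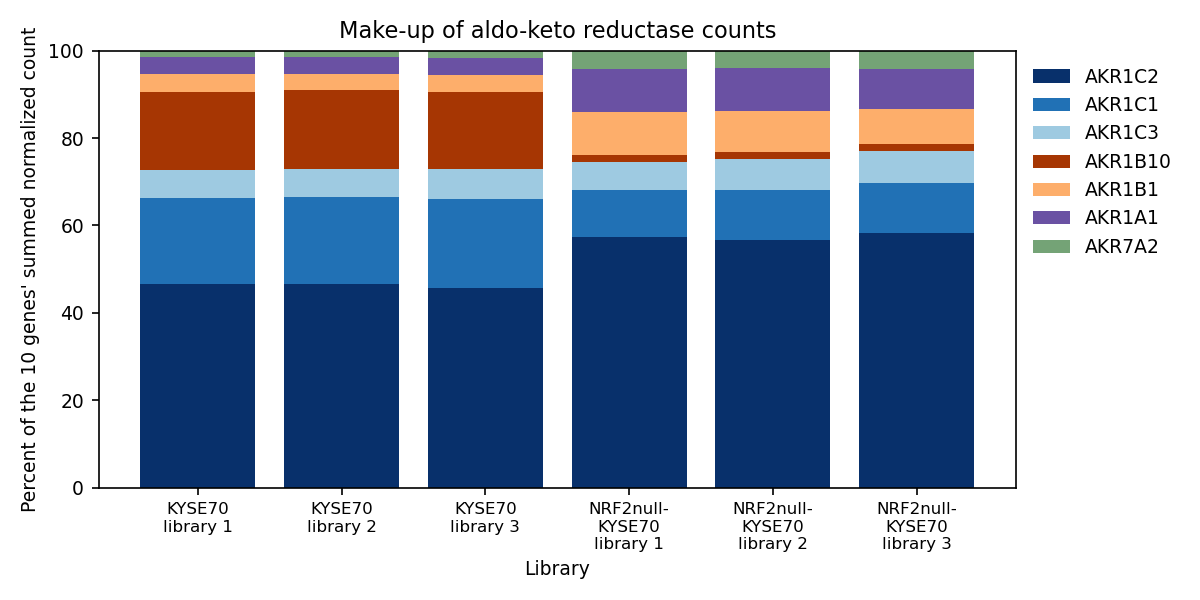
Percent of the summed normalized count of the 10 genes held by each gene in each of the 6 libraries, with AKR1B15, AKR1C4 and AKR7A3 too small to see. The 3 libraries of a line look alike, and the AKR1B10 band shrinks from 17.8% in KYSE70 to 1.64% in NRF2null-KYSE70.

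Levels can be compared between genes only per length, here as normalized counts per kilobase of the canonical GENCODE transcript. In KYSE70 the level was 39652 ± 895 for AKR1C2, 30271 ± 637 for AKR1B10 and 15468 ± 973 for AKR1C3. On this scale the libraries of these 3 genes did not overlap. AKR1C1 (8436 ± 372), AKR1B1 (8029 ± 333) and AKR1A1 (7516 ± 332) followed, with libraries that overlapped between neighbours in this order. AKR7A2 was at 2981 ± 102, and AKR1B15 (59.3 ± 3.18), AKR7A3 (23.9 ± 11.8) and AKR1C4 (1.98 ± 2.12) were lowest. The order was different in NRF2null-KYSE70, where AKR1C2 (17445 ± 2201) was followed by AKR1A1 (6598 ± 483), AKR1B1 (6466 ± 367) and AKR1C3 (5662 ± 1025). The libraries of AKR1A1, AKR1B1 and AKR1C3 overlapped. Below them were AKR7A2 (2984 ± 386), AKR1C1 (1698 ± 258) and AKR1B10 (987 ± 76.8). AKR7A3 (7.79 ± 4.27) and AKR1B15 (3.27 ± 2.01) overlapped near the bottom. All libraries of AKR1C4 (0.593 ± 0.518) lay below those of AKR7A3 and AKR1B15. The order depends on the length used. Per kilobase of all annotated exons of a gene, AKR1B10 (27642 ± 581) was above AKR1C2 (20947 ± 473) in KYSE70, and AKR1C1 (6298 ± 278) was above AKR1C3 (4690.5 ± 295). On that scale AKR1C2 (9215 ± 1163) was again the highest in NRF2null-KYSE70. The canonical transcript of AKR1C1 is long, with 6543 bases against 972 coding bases.

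Other genes of the AKR superfamily were taken from a list of 15, of which 14 were found and 6 tested. In NRF2null-KYSE70, 3 of the 6 were called lower and 0 higher, with a median log2 fold change of -0.76. Of all tested genes 7.43% were called lower and 7.23% higher. AKR1C7P, a pseudogene beside the AKR1C cluster, fell from 235 ± 43.8 to 37.5 ± 7.35 normalized counts (log2 fold change -2.62 with SE 0.226, limma adjusted p = 6.66e-07). AKR1B10P1, a processed copy of AKR1B10 on chromosome 10, fell from 108 ± 18.4 to a mean of 8.55, with 1, 10 and 13 reads (-3.94, SE 0.622, adjusted p = 0.000136). Its count was 0.220% ± 0.0343 of that of AKR1B10 in KYSE70 and 0.514% ± 0.408 in NRF2null-KYSE70. It held 7.01% of the 50-base windows of AKR1B10, 0.855% of the 100-base windows and 0% of the 150-base windows. How many of its reads came from AKR1B10 is uncertain and was not tested. KCNAB3, a potassium channel beta subunit with the AKR fold, fell from 36.9 ± 15.7 to 15.5 ± 4.36 (-1.16, adjusted p = 0.0319). Leaving out the first or second KYSE70 library, or the second of NRF2null-KYSE70, left 2 genes called.

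Genes beside the AKR clusters are given against all tested genes, of which 7.43% were called lower and 7.23% higher. Among 11 tested protein-coding genes within 1 Mb of the AKR1C cluster, which spans 256 kb, 1 was called lower and 0 higher. That gene was IL15RA (-1.10), and the median log2 fold change of the 11 was -0.04, against 0.09 for the whole chromosome arm. Around the AKR1B cluster, which spans 138 kb, 1 of 9 neighbours was called lower (AGBL3, -1.46), with a median of 0.12 against 0.17 for the arm. Around the AKR7A pair 1 of 15 neighbours was called lower (TMCO4, -1.44), with a median of 0.06, and around AKR1A1 2 of 37 were called lower and 4 higher, with a median of 0.01. IL15RA, AGBL3 and TMCO4 were named after their values were seen.

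**Figure D4:**
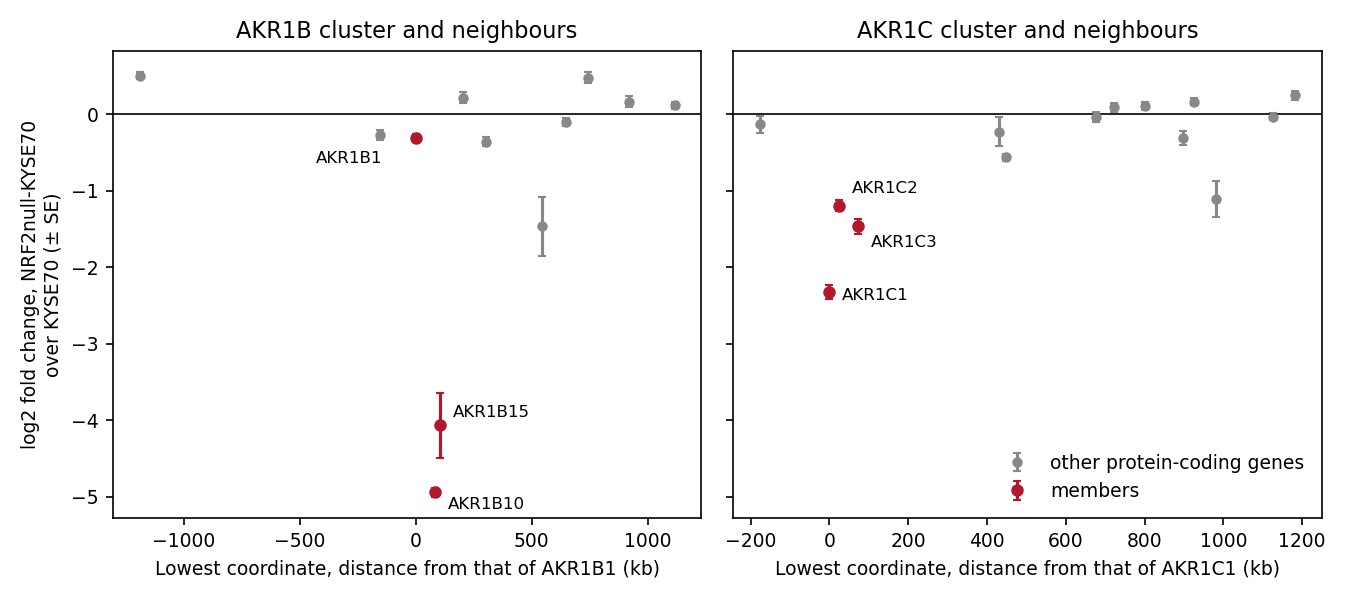
log2 fold change (NRF2null-KYSE70 over KYSE70, points with SE bars) of tested genes against the distance in kb of their lowest coordinate from that of AKR1B1 (left) or AKR1C1 (right). Members are red and other protein-coding genes within 1 Mb grey, and AKR1B10, AKR1B15 and the AKR1C genes lie below all their grey neighbours.

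The upstream sequences of AKR1C1 and AKR1C2 are shown because both genes were called lower by unequal factors. RefSeq promoter windows on GRCh38.p14, each 250 bases before to 50 bases after a start site, were matched for 8 members with 11 windows. AKR1B10 and AKR1B15 had none. The 250 bases before the starts of AKR1C1 and AKR1C2 were 96.5% identical, with 1 mismatch and 8 gap columns. The stretch of 80 bases below was the same letter for letter at chr10:4963169-4963248 (plus strand, AKR1C1) and chr10:5004028-5004107 (minus strand, AKR1C2).
AKR1C1 and AKR1C2: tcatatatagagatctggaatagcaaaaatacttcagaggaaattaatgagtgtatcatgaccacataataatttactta
The upstream window of AKR1C3 was less alike, with 71.4% and 69.2% identity to AKR1C1 for its 2 start sites.

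The core of the antioxidant response element, TGACNNNGC on either strand, was found in 2 of the 11 windows, both of AKR7A2. These windows overlap almost fully and hold the same matches. Of 35116 promoter windows of 300 bases in RefSeq, 13.3% held it. The AKR7A2 stretch at chr1:19312223-19312323 (minus strand, 101 bases) is shown because it carries 3 matches, in capitals, while the level of AKR7A2 did not pass the test.
AKR7A2: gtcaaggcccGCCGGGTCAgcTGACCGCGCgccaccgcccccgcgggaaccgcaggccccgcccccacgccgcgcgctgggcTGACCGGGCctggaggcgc
The first match is on the opposite strand to the gene. The AP-1 motif TGANTCA, which can overlap the core as TGACTCAGC, was in 0 of the 11 member windows, 7.71% of all windows held it and 0.561% held the overlap. CCAAT was in 6 of the 11 windows and in 34.6% of all, and the overlapping windows of AKR1B1 hold the same CCAAT. A match is a description of letters, and a window of this length without one says nothing of sites further away.

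The pathways in which these enzymes act were read from 4 lists. The counts stand against all tested genes, of which 7.43% were called lower and 7.23% higher. The retinoid list had 40 genes, of which 27 were tested, 4 called lower and 5 higher, with a median log2 fold change of 0.12. FABP5, which carries retinoic acid and fatty acids, fell from between 1483 and 1543 normalized counts to 15.8 ± 11.1 (-6.86, SE 0.505, limma adjusted p = 1.46e-07). RARB, a retinoic acid receptor, fell from 319 ± 46.4 to 21.9 ± 6.78 (-3.83). SDR16C5, a retinol dehydrogenase that works in the opposite direction to AKR1B10, rose from 58.3 ± 7.43 to 2551 ± 234 (5.43, SE 0.125, adjusted p = 4e-12). ALDH1A3, which makes retinoic acid, rose from 13320 ± 401 to 83395 ± 4546 (2.65, SE 0.051, adjusted p = 7.99e-13), and ALDH1A1 from 98.6 ± 18.4 to 547 ± 56.4 (2.47). STRA6, a retinol transporter, rose from 15.6 ± 8.47 to 76.3 ± 16.9 (2.36).

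The prostaglandin list had 27 genes, of which 15 were tested, 4 called lower and 5 higher (median 0.13). The shares of all tested genes were 7.43% and 7.23%. PTGS2, the inducible cyclooxygenase, rose from 98.1 ± 11.3 to 2267 ± 110 normalized counts (4.52, SE 0.110, limma adjusted p = 7.04e-12), and PTGER4, a receptor for prostaglandin E, from 267 ± 31.3 to 2526 ± 91.0 (3.24). CBR1, a carbonyl reductase, rose from 7.13 ± 8.55 to 42.3 ± 26.7 (2.79, adjusted p = 0.00816), with libraries that overlapped between the lines. TBXAS1, thromboxane synthase, fell from 178 ± 62.8 to 16.4 ± 5.54 (-3.36), and PTGES, which makes prostaglandin E, from a mean of 263 to 44.3 ± 12.4 (-2.57). PTGER2, another receptor of prostaglandin E, fell from 22.2 ± 2.02 to 5.08 ± 5.09 (-2.30, adjusted p = 0.0102).

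The steroid list had 39 genes, of which 19 were tested, 6 called lower and 0 higher (median -0.14). Again, 7.43% and 7.23% of all tested genes were. STAR, which brings cholesterol into mitochondria, fell from 409.5 ± 33.6 to 101 ± 21.1 normalized counts (-2.03, SE 0.175, limma adjusted p = 6.44e-07). HSD17B6, a hydroxysteroid dehydrogenase, fell from 62.3 ± 17.1 to 19.5 ± 7.88 (-1.66), and CYP19A1, the aromatase that makes estrogens, from 62.6 ± 15.6 to 19.8 ± 4.21 (-1.61). HSD3B7, an enzyme of bile acid synthesis, fell by 1.34 on the log2 scale, and HSD11B2, which inactivates cortisol, by 1.20. STAR, HSD17B6 and, in the retinoid list, STRA6 share 7.61%, 5.81% and 6.77% of their exon bases with ASH2L, PRIM1 and CCDC33 on the opposite strand, which had higher mean counts, and whether the counting used strand was not stated. The list of polyol and dicarbonyl enzymes, the pathway of AKR1B1, had 18 genes, of which 17 were tested and 0 called (median -0.13). At adjusted p alone 7 were lower and 2 higher. Of all tested genes 14.7% were called, and 28.3% were lower and 29.3% higher at adjusted p alone.

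The genes with the pattern most like AKR1B10 over the 6 libraries, by Pearson r of log2(normalized count + 1) among 8100 genes with a mean of at least 1000, were MAL2, CES1, TUSC3, KIF22 and CORO1C. For AKR1C1 they were NDRG1, TRIM16L, HMGB1, SFN and PPT1. With 2 lines of 3 libraries, r mainly reflects the step between the lines, and 478 genes had r over 0.99 with AKR1B10 and 347 with AKR1C1. The size of the step was not part of r, as CES1 changed by -3.29 and KIF22 by -0.47. Among the members, r with AKR1B10 was 0.996 for AKR1C1, 0.989 for AKR1C2, 0.985 for AKR1B15 and 0.051 for AKR7A2.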

How the data were processed

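RNA-seq was made from 3 libraries each of KYSE70 and NRF2null-KYSE70. The submitters' processing notes named FastQC 0.11.5, cutadapt 1.12, STAR 2.6.90c and featureCounts 1.5.1, and the study's methods name hg38 and DESeq2. The table that the authors deposited holds a signal, normalized counts, made by dividing read counts per gene by 1 size factor per library. Strand use and multi-mapping were not given in the sources used here. Whole reads were recovered from all values (100% within 0.01 of a whole number). Depth was 52072801 to 63975313 reads per library, and counting intervals would cover counting error only. The 10 members, the 5 gene lists and the 4 marker lists were chosen with earlier results of these data known.

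limma 3.58.1 (R 4.3.3, eBayes with trend, two-sided) was run on log2(normalized count + 1) for the 15994 genes with a mean of at least 10, with Benjamini-Hochberg adjustment over all of them. In simulated data for this comparison with 200 changed genes among 15994, 96% were recovered at a log2 change of 1.5 and 98% at 2, with 0 false calls. The simulation gave every gene the same dispersion, so it does not measure error rates at the spread of the real libraries. Count tests on the recovered reads called 2341 genes in DESeq2 1.42.0 and 2350 in edgeR 4.0.16, against 2344. Single values were compared by exact permutation of the libraries (scipy 1.17.1). Genes named were all members, NFE2L2, KEAP1, called AKR superfamily genes, up to 6 called genes per pathway list with the largest absolute fold change, and the 5 genes most like AKR1B10 and AKR1C1. Of the genes this rule and the marker lists cover, 2 are not reported here. Transcripts and positions were taken from GENCODE v44 (hg38), which held 58472 of the gene identifiers. Coding and transcript sequence was that of the canonical transcript. Promoters came from RefSeq (GRCh38.p14).

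The alternatives tried were quantile, total and TMM scaling, pseudocounts of 5 and 0.1, a filter at a mean of 50 or none, limma with robust eBayes or without the trend, both count tests, subtraction of arm medians, no fold cut-off, and each library left out.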

Additional observations from a re-analysis of the deposited data

How the results depend on the processing

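AKR1B10, AKR1B15, AKR1C1, AKR1C2 and AKR1C3 stayed lower and called under all 19 alternatives. Their log2 fold changes ranged from -5.11 to -4.88, -4.46 to -3.35, -2.42 to -2.20, -1.28 to -1.10 and -1.59 to -1.32. The count of members called ranged from 5 to 8, and from 5 to 6 with 1 library left out. AKR7A2, near 0, ranged from -0.11 to 0.076 with 1 library left out. It reversed to 0.00018 in edgeR, 0.02 without KYSE70 library 3, 0.08 without NRF2null-KYSE70 library 1 and 0.01 without NRF2null-KYSE70 library 2. The call of AKR7A3 was also lost with no filter (adjusted p = 0.0719), quantile scaling (0.0501) and limma without trend (0.071). In all, 158 of 170 values of the 9 tested members kept their direction and side of the threshold. A filter at a mean of 50 left 1511 genes called of 2344, since fewer genes were tested, and 5 in the retinoid list. Without the fold cut-off 9206 genes passed, with 19 in the retinoid, 14 in the prostaglandin, 13 in the steroid and 9 in the polyol list. With 1 library left out, all genes called ranged from 2228 to 2346. Total scaling shifted the median of all genes by -0.075. The family's share of reads, the AKR1C sum and the 5 ratios kept their direction in every alternative run, and with 3 libraries a line their p could not go below 0.1, or 0.2 with 1 library left out. AKR7A3 and, in the clone, AKR1B15 were limited by their few reads. No paired analysis was possible because the columns of the table carry no replicate numbers.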
